A study of Homo sapiens with 6 samples.

Results

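Keratins are the intermediate filament proteins of epithelia and hair, and U2OS 2-6-3, a subline of the human osteosarcoma line U2OS with an integrated reporter array that carries tet operators, expressed several of them. The genes described here are 7 keratins (KRT7, KRT8, KRT18, KRT19, KRT34, KRT80 and KRT81) and 2 keratin-associated protein genes (KRTAP2-3 and KRTAP1-5), 9 of the 26872 genes with an entry on a primary chromosome. Each gene was found by its symbol, and the primary-chromosome entry with the largest deposited mean over the 3 comparison tables stood for it. The names were chosen by family and with the measured levels and deposited log2 fold changes of these same libraries in view, so fold changes and calls are given as a description and carry no weight as an independent test.

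RNA sequencing covered 3 groups of 2 libraries each, and every group was kept under white light overnight. Sample cells had been transiently transfected with PHR-YFP-VP16 (a blue-light receptor domain fused to the VP16 activation domain), CIBN-TetR (the partner of that receptor fused to the tet repressor) and mCherry-MCP (a fluorescent coat protein that marks reporter RNA), which together form a light-driven activator and its reporter. Mock cells had been transfected with TetR-RFP & YFP, which include the tet repressor and fluorescent proteins but no VP16. The reagent was Roche Xtreme gene in both, and untransfected cells received neither plasmids nor reagent. The labels do not say whether the libraries of a group came from separate cultures, so every p-value measures only the spread between these libraries, which may be technical. Replicate numbers could not be tied to the recovered counts, so within each group the letter a marks the deeper library and b the shallower. Totals were 50105854 and 9579278 reads for sample a and b, 54177551 and 44594507 for mock a and b, and 53596406 and 51146190 for untransfected a and b. Sample b was thus the shallowest library by far, and the sample pair differed most, with an SD of the log2 ratio between its libraries of 0.42 over 12581 genes, against 0.21 in the mock pair and 0.18 in the untransfected pair.

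The labelled cell type was checked against marker lists. The 8 osteoblast and osteosarcoma markers listed all had a mean of at least 10 normalized counts (reads divided by a library's size factor), and 4 of 5 mesenchymal markers did, TWIST1 being at 0. The osteoblast sums ran from 28537 to 37036 in sample cells, 27214 to 28264 in mock cells and 40819 to 41592 in untransfected cells, and the mesenchymal sums from 61651 to 73131 in sample cells, 67647 to 70061 in mock cells and 48653 to 51668 in untransfected cells. Of 10 epithelial markers 3 reached that level and GRHL2 was at 0. The summed level of the epithelial list was 264 and 251 normalized counts in sample cells and 279 and 199 in mock cells, against 1695 and 1747 in untransfected cells, and CLDN4, a tight junction gene, made up most of the untransfected sum. For 6 hair and nail markers, of which FOXN1 and DSG4 were at 0, the sums were 412 and 625 in sample cells, 450 and 417 in mock cells, and 431 and 513 in untransfected cells. The sums of 5 blood markers were low, 122 and 103 in sample cells, 39.5 and 24.1 in mock cells, and 22.2 and 18.7 in untransfected cells, with HBB making up most of the sample sums. The part of other cell types in the results below was not tested, and in bulk RNA fewer cells of a type cannot be told apart from less RNA per cell.

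Keratin filaments are built from pairs of an acidic type I and a neutral or basic type II keratin. KRT18 (type I) and KRT8 (type II) are the pair of simple epithelia, with KRT19 and KRT7 as further simple-epithelial members of each type, while KRT34 (type I) and KRT81 (type II) are keratins of the hair shaft. KRT80 is a type II keratin found in many epithelia. Keratin-associated proteins such as KRTAP2-3 and KRTAP1-5 form the cysteine-rich matrix around the hair keratin filaments. Type I keratins and the KRTAP genes named here lie on chromosome 17, type II keratins on chromosome 12, and KRT18 stands beside KRT8 on chromosome 12.

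The stretches before the starts of the genes that carry the main differences are shown because KRTAP2-3 and KRT34, which lie on the same chromosome, moved by far more than the other members, whereas KRTAP1-5 had no reads. RefSeq promoters (GRCh38.p14) were at hand for 4 of the 9 genes, and the 250 bases before the RefSeq start are printed from 5′ to 3′ on the minus strand, where the 4 genes are encoded. These RefSeq starts are not the ends of the entries used for the levels: the KRT34 window overlaps the 5′ end of its entry, TATAAA included, and the KRT8 window precedes a coding entry that ends at 52926469, inside the longer entry used here. Capitals mark the letters TATAAA. The regions are chr17:41060115-41060364 for KRTAP2-3, chr17:41382307-41382556 for KRT34, chr17:41027209-41027458 for KRTAP1-5 and chr12:52926470-52926719 for KRT8.
KRTAP2-3: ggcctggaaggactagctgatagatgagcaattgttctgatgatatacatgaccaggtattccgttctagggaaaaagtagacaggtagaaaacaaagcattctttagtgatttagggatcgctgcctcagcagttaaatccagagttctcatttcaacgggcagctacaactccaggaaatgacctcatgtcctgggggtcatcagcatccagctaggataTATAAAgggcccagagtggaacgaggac
KRT34: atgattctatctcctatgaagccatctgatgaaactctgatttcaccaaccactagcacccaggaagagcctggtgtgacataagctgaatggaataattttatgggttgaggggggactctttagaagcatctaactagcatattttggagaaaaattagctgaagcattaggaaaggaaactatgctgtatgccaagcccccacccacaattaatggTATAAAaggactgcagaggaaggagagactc
KRTAP1-5: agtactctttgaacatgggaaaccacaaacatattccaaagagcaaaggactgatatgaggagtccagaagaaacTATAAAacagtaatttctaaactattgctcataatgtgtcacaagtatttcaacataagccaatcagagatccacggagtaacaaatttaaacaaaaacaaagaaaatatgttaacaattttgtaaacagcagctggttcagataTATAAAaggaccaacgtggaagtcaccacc
KRT8: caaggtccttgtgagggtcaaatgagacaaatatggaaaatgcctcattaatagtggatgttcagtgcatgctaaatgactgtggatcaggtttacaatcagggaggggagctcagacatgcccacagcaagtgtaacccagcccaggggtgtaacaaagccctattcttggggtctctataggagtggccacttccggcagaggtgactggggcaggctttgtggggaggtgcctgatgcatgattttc
The letters TATAAA, the core of the TATA box, stood at bases -28 to -23 from the start of KRTAP2-3 and at -31 to -26 from that of KRT34, counting the base before the start as -1. KRTAP1-5 had them at -30 to -25 and again at -175 to -170, so they were also present before a gene with no reads. All matches were on the printed strand. Of 35116 RefSeq promoters, 10.7% held TATAAA on either strand in a window of this length. The letters TGANTCA (the AP-1 type site, in 6.57% of promoters), GGGCGG (the GC box, in 42.6%) and CATTCC (the TEAD type site, in 11.9%) were searched on both strands too, and no match to them was found in the 4 windows. The printed KRT8 window matched no motif searched. A further coding entry of KRT8 ends at 52905084, and the stretch before that start was not searched. The GC content was 46% for KRTAP2-3, 42.4% for KRT34, 34.4% for KRTAP1-5 and 50.4% for KRT8, against a median of 58% over all promoters. These matches describe the printed letters and do not show that a factor binds there.

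KRTAP2-3 and KRT34 were far higher in both transfected groups than in untransfected cells. KRTAP2-3 (chr17:41059240-41060092 on hg38, minus strand) had 815 and 1718 normalized counts in sample cells and 1049 and 1143 in mock cells, against 17.7 and 11.5 in untransfected cells. Every transfected library stood above every untransfected library, and the mock values lay between those of the sample pair. The means were 1266 ± 639 in sample cells, 1096 ± 66.9 in mock cells and 14.6 ± 4.36 in untransfected cells (SD, n = 2 each), 86.9-fold higher in sample cells and 75.3-fold higher in mock cells than in untransfected cells. These levels rest on 1045 and 418 reads in sample cells, 1486 and 1236 in mock cells, and 27 and 16 in untransfected cells. Its log2 fold change in the authors' deposited table was 4.49 (SE 0.45) for sample against untransfected cells and 5.94 (SE 0.23) for mock against untransfected cells. The authors' estimates are pulled toward 0 compared with plain ratios, and the log2 ratio of the group means was 6.39 for sample against untransfected cells. The near-identical gene KRTAP2-4 shares 39.5% of the 50-base windows of the KRTAP2-3 transcript and was assigned 0 reads in the 6 libraries. How the authors' counting treated reads that match both genes is not given in the sources used here.

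KRT34 (chr17:41377669-41382384, minus strand), the type I hair keratin, had 1471 and 1923 normalized counts in sample cells and 1417 and 1558 in mock cells, against 107 and 127 in untransfected cells. The transfected and untransfected libraries did not overlap, and the ranges of sample and mock cells did. The means were 1697 ± 320 in sample cells, 1487 ± 99.95 in mock cells and 117 ± 14 in untransfected cells (SD, n = 2 each), which is 14.5-fold higher in sample cells and 12.7-fold higher in mock cells. The authors' deposited table gives KRT34 a log2 fold change of 3.72 (SE 0.19) for sample against untransfected cells and 3.64 (SE 0.13) for mock against untransfected cells. KRT34 shares 11.4% of its 50-base windows with other genes, 6.64% with KRT33B. KRTAP2-3 and KRT34 are 318 kb apart, with 25 other keratin-family genes between them. Of those 25 genes 6 had any read, and KRT33B, a further type I hair keratin, was the only one with a mean of at least 10 normalized counts.

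**Figure D1:**
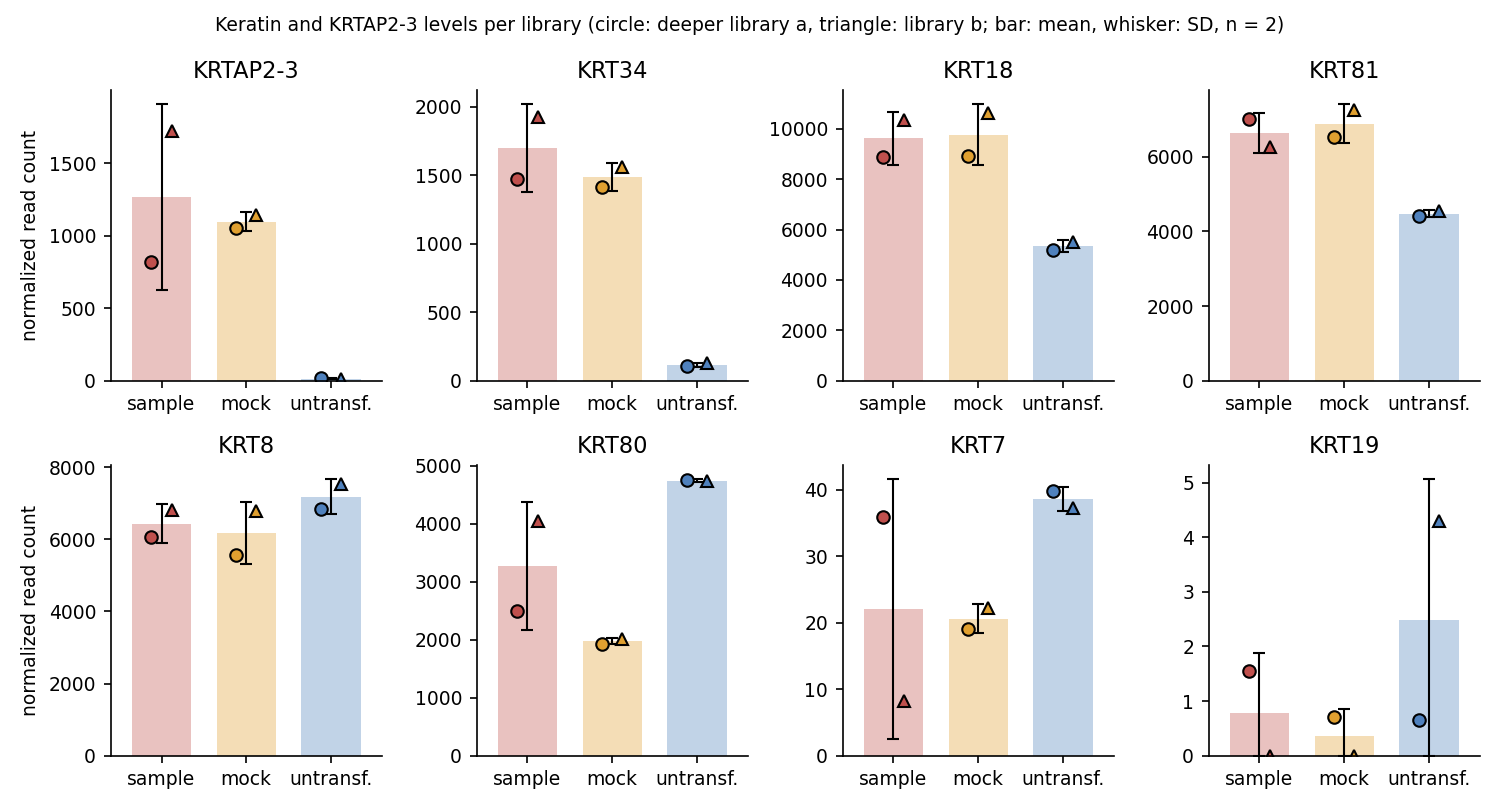
Normalized read count (y axis) of 8 genes in sample, mock and untransfected cells. Bars are means, whiskers the SD (n = 2, ending at 0 where the SD exceeds the mean) and points single libraries; KRTAP2-3 and KRT34 are near 0 in untransfected cells on these axes, KRT80 is highest there, and the sample points of KRTAP2-3, KRT80 and KRT7 lie far apart.

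KRTAP1-5, the other matrix gene on the list, had no read in any of the 6 libraries, and neither did the 5 family genes annotated in the 32.0 kb between it and KRTAP2-3. With 3 counts taken as the limit that a count of 0 allows, its level could reach 2.34 and 12.3 normalized counts in sample a and b, 2.12 and 2.78 in mock a and b, and 1.96 and 2.15 in untransfected a and b, a limit that covers counting error only. The entries of KRTAP1-5, KRTAP2-3 and KRT34 on alternative scaffolds also had no reads. Of 92 keratin-associated protein genes in the tables, 16 had any read, and KRTAP2-3 alone had a mean of at least 10 normalized counts. The next highest such gene had a mean of 5.91. KRT19 (chr17:41523617-41528389, minus strand), a type I keratin of simple epithelia, had 2 and 0 reads in sample cells, 1 and 0 in mock cells, and 1 and 6 in untransfected cells. The authors' deposited table gives KRT19 no adjusted p in any comparison, and at this depth no difference was detectable.

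KRT18, the type I partner of KRT8, and KRT81, the type II hair keratin, were moderately higher in both transfected groups. KRT18 (chr12:52949059-52952901, plus strand) had 8870 and 10367 normalized counts in sample cells and 8927 and 10622 in mock cells, against 5185 and 5517 in untransfected cells. All 4 transfected libraries were above the untransfected pair. Its means were 9619 ± 1059 in sample cells, 9775 ± 1199 in mock cells and 5351 ± 234 in untransfected cells (SD, n = 2 each), 1.80-fold higher in sample cells and 1.83-fold higher in mock cells. Its log2 fold change in the authors' deposited table was 0.84 (SE 0.11) for sample against untransfected cells and 0.90 (SE 0.09) for mock against untransfected cells. Other genes share 31.8% of the windows of its transcript, and the pseudogene KRT18P11 shares the most, 9.98%.

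KRT81 (chr12:52285913-52291515, minus strand) had 7015 and 6266 normalized counts in sample cells and 6521 and 7252 in mock cells, against 4403 and 4541 in untransfected cells, again with no overlap between transfected and untransfected libraries. The means were 6641 ± 530 in sample cells, 6887 ± 517 in mock cells and 4472 ± 98.1 in untransfected cells (SD, n = 2 each). The authors' deposited table gives a log2 fold change of 0.58 (SE 0.11) for sample against untransfected cells and 0.65 (SE 0.08) for mock against untransfected cells. KRT86, a near-identical type II hair keratin, shares 38.4% of the windows of the KRT81 transcript, and its entry covers that of KRT81 in the genome. KRT86 itself was assigned 40 reads over the 6 libraries and KRT81 40666. How the authors' counting treated reads that match both is not given in the sources used here.

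KRT8, the type II partner of KRT18, did not pass the authors' threshold in any comparison. It had 6052 and 6813 normalized counts in sample cells and 5561 and 6783 in mock cells, against 6829 and 7516 in untransfected cells. Sample b and mock b came close to untransfected a without reaching it. Its means were 6432 ± 538 in sample cells, 6172 ± 864 in mock cells and 7173 ± 486 in untransfected cells (SD, n = 2 each). In the authors' deposited table the log2 fold change was -0.15 (SE 0.11, adjusted p = 0.322) for sample against untransfected cells and -0.18 (SE 0.09, adjusted p = 0.0842) for mock against untransfected cells. This call depended on the scaling, since with library totals limma-voom gave -0.30 (adjusted p = 0.0170) for sample and -0.35 (adjusted p = 0.00461) for mock against untransfected cells, a scaling that moves the median of all genes by -0.12 and -0.13. The mock difference also varied with the library left out. By limma-voom it was -0.36 without mock b and -0.08 without mock a, fits with 1 mock library each. Other genes share 32.7% of the windows of KRT8. The entry with the most reads runs from 52897187 to 52949866 on chromosome 12 (minus strand) and overlaps the start of KRT18 by 0.807 kb. The shorter coding entry of KRT8, which does not reach KRT18, had nearly as many reads, 7712 against 7763 in sample a and 10375 against 10447 in untransfected a.

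The balance within the KRT8/KRT18 pair was not the same in transfected and untransfected libraries, which is given as a description without a test. Per kilobase of transcript, the level of KRT18 was 1.99 and 2.07 times that of KRT8 in sample cells and 2.18 and 2.13 times in mock cells, against 1.03 and 0.999 times in untransfected cells. With the coding entry of KRT8 in place of the longest, the ratios were 1.78 and 1.84 in sample cells, 1.95 and 1.90 in mock cells, and 0.921 and 0.890 in untransfected cells. In untransfected cells both partners were present at about the same level per kilobase, and in every transfected library KRT18 was in excess. A ratio within a library does not depend on how libraries are scaled to each other, but it does not say which partner moved.

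KRT80, a type II keratin, was lower in both transfected groups, and lowest in mock cells. KRT80 (chr12:52168996-52192000, minus strand) had 2499 and 4056 normalized counts in sample cells and 1934 and 2013 in mock cells, against 4760 and 4731 in untransfected cells. The 3 groups did not overlap, but the sample libraries differed by more than the distance between sample b and untransfected cells. The means were 3277 ± 1101 in sample cells, 1974 ± 56.0 in mock cells and 4746 ± 20.8 in untransfected cells (SD, n = 2 each), 1.45-fold higher in untransfected than in sample cells and 2.40-fold higher in untransfected than in mock cells. In the authors' deposited table KRT80 fell by 0.51 on the log2 scale (SE 0.18, adjusted p = 0.0166) in sample against untransfected cells and by 1.23 (SE 0.08) in mock against untransfected cells. With limma-voom on the recovered counts the log2 fold change for sample against untransfected cells was -0.68 with every library and -0.23 (adjusted p = 0.0685) without sample a, where sample b stands alone and the spread comes from the other groups.

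KRT7 (chr12:52233170-52248925, plus strand), the type II keratin of ducts and glands, was low everywhere, with 35.9 and 8.22 normalized counts in sample cells and 19.1 and 22.2 in mock cells, against 39.9 and 37.3 in untransfected cells. The value of sample b rests on 2 reads and that of sample a on 46. Mock libraries were both below the untransfected pair, and the sample libraries lay on either side of the mock values. Neither KRT7 difference passed in the authors' deposited table, with a log2 fold change of -0.40 (SE 0.48, adjusted p = 0.565) for sample against untransfected cells and -0.72 (SE 0.41, adjusted p = 0.126) for mock against untransfected cells. By limma-voom the mock difference was -0.90 (adjusted p = 0.0627), and it passed without sample a (adjusted p = 0.00973), without sample b (adjusted p = 0.0144) and with upper-quartile sizes (adjusted p = 0.0484).

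Counting the list as a whole, 7 of the 9 genes had an adjusted p in the authors' tables. For sample against untransfected cells 5 of the 7 passed at an adjusted p under 0.05 by the authors' DESeq2, with KRTAP2-3, KRT34, KRT18 and KRT81 higher and KRT80 lower. Of the 15569 genes tested in that comparison 37.3% passed, 20.2% higher and 17.1% lower. For mock against untransfected cells the same 5 genes passed in the same directions, and of 17099 genes 50.9% passed, 27.5% higher and 23.3% lower. Nothing is read from these counts, since the list was chosen with the values known, and both comparisons share the untransfected libraries. The median deposited log2 fold change of the 7 genes was 0.58 for sample and 0.65 for mock against untransfected cells, and the median over all genes tested was -0.00280 and -0.00385 in these comparisons.

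Sample and mock cells differ in the plasmids, the activator among them, and here none of the 7 genes passed. By the authors' DESeq2 0 of 7 passed, where 0.0785% of 15289 genes did (0.0196% higher and 0.0589% lower), and limma-voom also called 0 of 7, with 0.0134% of all genes passing. At an unadjusted p under 0.05 there was 1 gene, KRT80. In the authors' deposited table its log2 fold change for sample against mock cells was 0.46 (SE 0.12, p = 0.000129, adjusted p = 0.146), and the group means stood at a ratio of 1.66. The recomputed log2 difference of KRT80 was 0.59, with a 95% interval from 0.21 to 0.97 before adjustment. Without sample a it was 1.04 with an adjusted p of 3.61e-05 by limma-voom, a fit in which sample b is the lone sample library and is assumed to vary like the other groups. KRTAP2-3 had a difference of -0.12 with an interval from -0.64 to 0.41, and in the same fit without sample a, with the spread taken from the mock and untransfected pairs alone, it was 0.65 with an adjusted p of 0.00827. The distance between the sample libraries, 815 against 1718 normalized counts of KRTAP2-3, does not enter that p. In that fit 5.67% of all genes passed between sample and mock cells. For KRT34 the difference was 0.11 (95% interval from -0.16 to 0.38), for KRT18 -0.03 (from -0.27 to 0.20), for KRT81 -0.04 (from -0.23 to 0.15) and for KRT8 0.05 (from -0.19 to 0.30), all by limma-voom. These intervals bound the difference between sample and mock cells and do not show that it is 0.

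**Figure D2:**
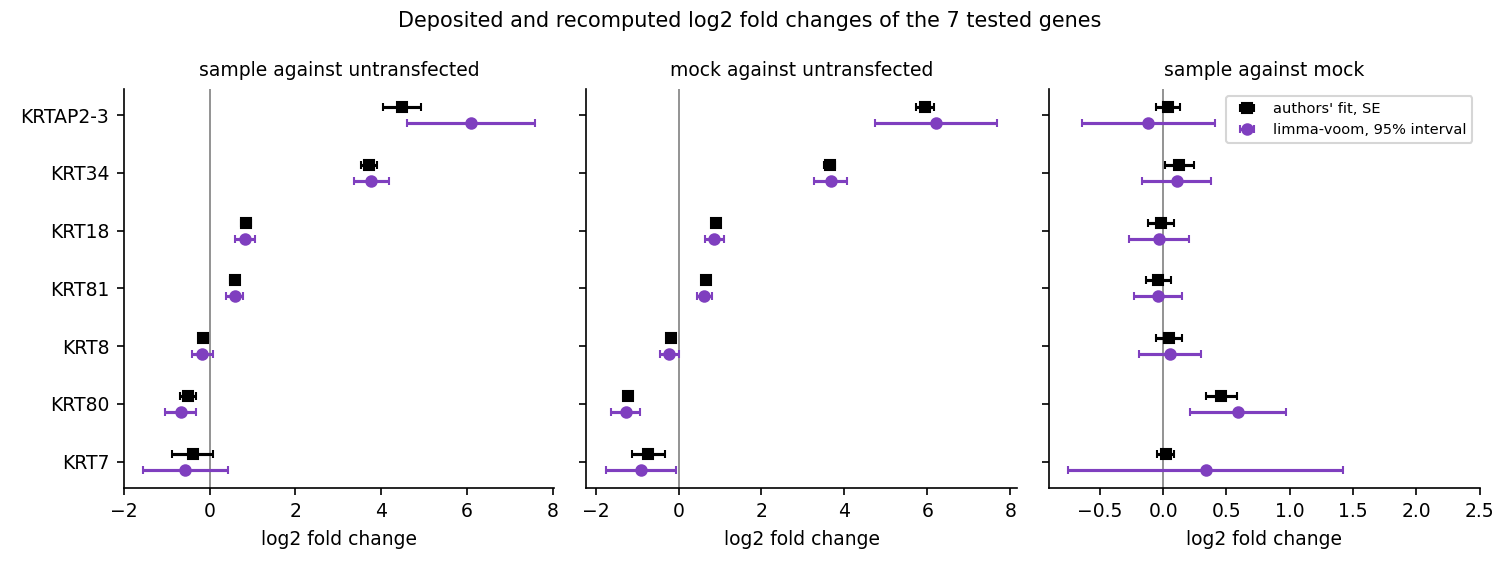
Log2 fold changes (x axis) of the 7 tested genes in the 3 comparisons, as deposited (squares, SE) and by limma-voom on the recovered counts (circles, 95% interval). KRTAP2-3 and KRT34 lie furthest to the right against untransfected cells; for sample against mock cells, KRT80 is the gene whose limma-voom interval does not reach 0.

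Levels of different genes were set side by side per kilobase, which takes account of transcript length but not of reads shared between genes. Other genes share 44.6% of the windows of KRT81 and 39.7% of those of KRTAP2-3, against 0.416% for KRT80 and 0.997% for KRT7. The effect of this on the order was not tested. On this scale KRT18 was the most abundant of the 9 genes in both transfected groups. Its mean was 6158 in sample cells and 6258 in mock cells, and 3426 in untransfected cells. KRT8 was level with KRT18 in untransfected cells at 3374, where the order turns with the entry taken for KRT8, and stood below KRT81 in the transfected groups, at 3026 in sample and 2903 in mock cells. KRT81 stood at 3443 in sample cells, 3570 in mock cells and 2318 in untransfected cells. KRTAP2-3 reached 1447 in sample and 1253 in mock cells and was at 16.6 in untransfected cells, where it was below KRT7 at 22.0. KRT34 had 969 in sample cells, 849 in mock cells and 66.9 in untransfected cells. KRT80 had 842 in sample cells, 507 in mock cells and 1219 in untransfected cells. The order of the genes thus differed between the groups: KRTAP2-3 and KRT34 stood above KRT80 in the means of both transfected groups and below it in untransfected cells.

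The members were then set beside the rest of the family. Of 55 keratin genes listed, 42 had any read and 16 had a mean of at least 10 normalized counts, and shares were taken over the summed per-kilobase level of these 16. KRT17, a type I keratin of stressed and basal epithelium that is not among the 9 genes, made up 55.9% and 53.3% of it in sample cells, 53.4% and 55.6% in mock cells, and 57.2% and 58.0% in untransfected cells. KRT18 held 17.1% and 19.2% in sample cells and 19.0% and 18.5% in mock cells, against 11.3% and 11.0% in untransfected cells. KRT34 held 2.53% and 3.17% in sample cells and 2.69% and 2.42% in mock cells, against 0.209% and 0.227% in untransfected cells. Opposite to both ran KRT75, a type II keratin of the hair follicle, with 1.90% and 1.66% in sample cells and 2.12% and 2.09% in mock cells, against 6.10% and 6.27% in untransfected cells. The summed type I level was 3.26 and 3.28 times the summed type II level in sample cells and 3.19 and 3.44 times in mock cells, against 2.39 and 2.45 times in untransfected cells. Type I keratin RNA exceeded type II in every library, and more so in the transfected ones.

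**Figure D3:**
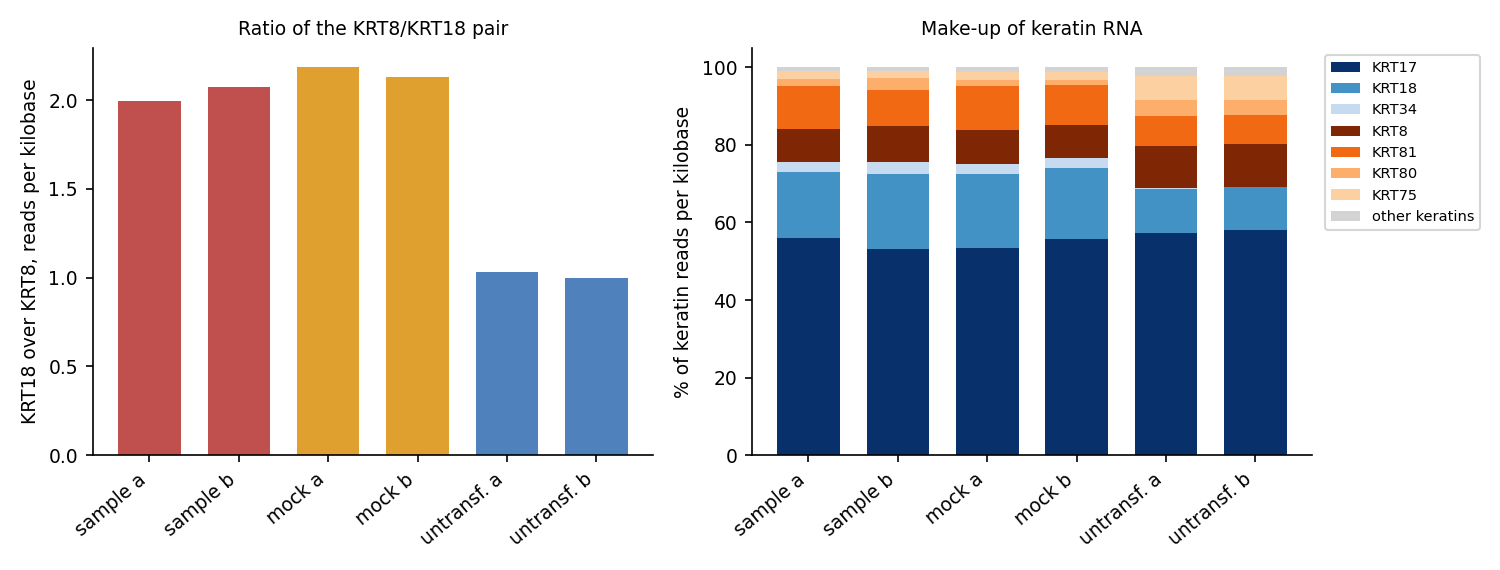
Left, level of KRT18 over KRT8 per kilobase in each library; right, shares (%) of the summed per-kilobase level of 16 keratins, with type I keratins in blue and type II keratins in brown and orange. The KRT18 over KRT8 bars are near 1.03 and 0.999 in untransfected cells and between 1.99 and 2.18 in transfected cells, and KRT17 fills more than any other band in every library.

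The other 138 keratin and keratin-associated protein genes were counted as a list, drawn up by symbol. Of them 50 had any read and 10 a mean of at least 10 normalized counts. For sample against untransfected cells the authors' table tested 13, of which 1 rose and 6 fell, with a median log2 fold change of -1.04 against -0.00280 over all genes, beside 37.3% of all genes passing (20.2% higher and 17.1% lower). In the same comparison limma-voom, on the 10 genes with a mean of at least 10, called 4 higher and 5 lower. These are not the same genes as the 13, and the share of all genes passing limma-voom against untransfected cells was not taken. For mock against untransfected cells the authors' table tested 17, of which 5 rose and 8 fell, with a median of -1.17 against -0.00385 over all genes, beside 50.9% of all genes passing (27.5% higher and 23.3% lower), and limma-voom called 4 higher and 5 lower of 10. The genes tested by the authors included some with few reads, such as KRT71 at a mean of 5.45 normalized counts. Nothing is read from these counts and medians. Sample against mock cells gave 0 of 11 by the authors' DESeq2 and 0 of 10 by limma-voom, beside 0.0785% and 0.0134% of all genes. KRT15 was the 1 gene at an unadjusted p under 0.05 in the authors' table.

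Of the named keratins of this list, KRT5, KRT14, KRT16, KRT222 and KRT75 were lower in both transfected groups, KRT15 was higher in both, and KRT17 did not pass. KRT5 and KRT14 are the type II and type I pair of basal keratinocytes. KRT5 averaged 26.0 normalized counts in sample cells and 29.1 in mock cells, against 355 in untransfected cells, and in the authors' deposited table it fell by 3.28 on the log2 scale in sample cells and fell by 3.39 in mock cells. KRT14 averaged 74.2 in sample cells and 71.1 in mock cells, against 372 in untransfected cells, and the authors' deposited table gives it -2.08 for sample and -2.27 for mock. KRT14 over KRT5 per kilobase was 4.61 and 4.06 in sample cells and 4.21 and 3.38 in mock cells, against 1.70 and 1.51 in untransfected cells. The type I partner was thus above the type II partner in every library, and more so in the transfected ones. The transfected ratios rest on few reads of KRT5, 35 and 6 in sample cells and 34 and 37 in mock cells. In sample b KRT14 had 16 reads. Sequence that KRT14 or KRT5 shares with other genes was not examined. KRT16, a keratin of activated epidermis, had log2 fold changes of -1.82 and -2.04, KRT222, a keratin-like gene, -2.15 and -2.22, and KRT75 -1.61 and -1.39 for sample and mock against untransfected cells in the authors' deposited table. KRT15, a type I keratin of basal cells, averaged 96.1 in sample cells and 173 in mock cells, against 32.3 in untransfected cells, and rose by 1.32 and 2.28 in the authors' deposited table. KRT6A, an inducible type II keratin, passed for mock against untransfected cells at 2.38 and not for sample against untransfected cells at 1.103 (adjusted p = 0.0710) in the authors' deposited table. KRT17, the most abundant, had 0.08 in both and did not pass (adjusted p = 0.586 for sample and 0.531 for mock in the authors' deposited table).

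**Figure D4:**
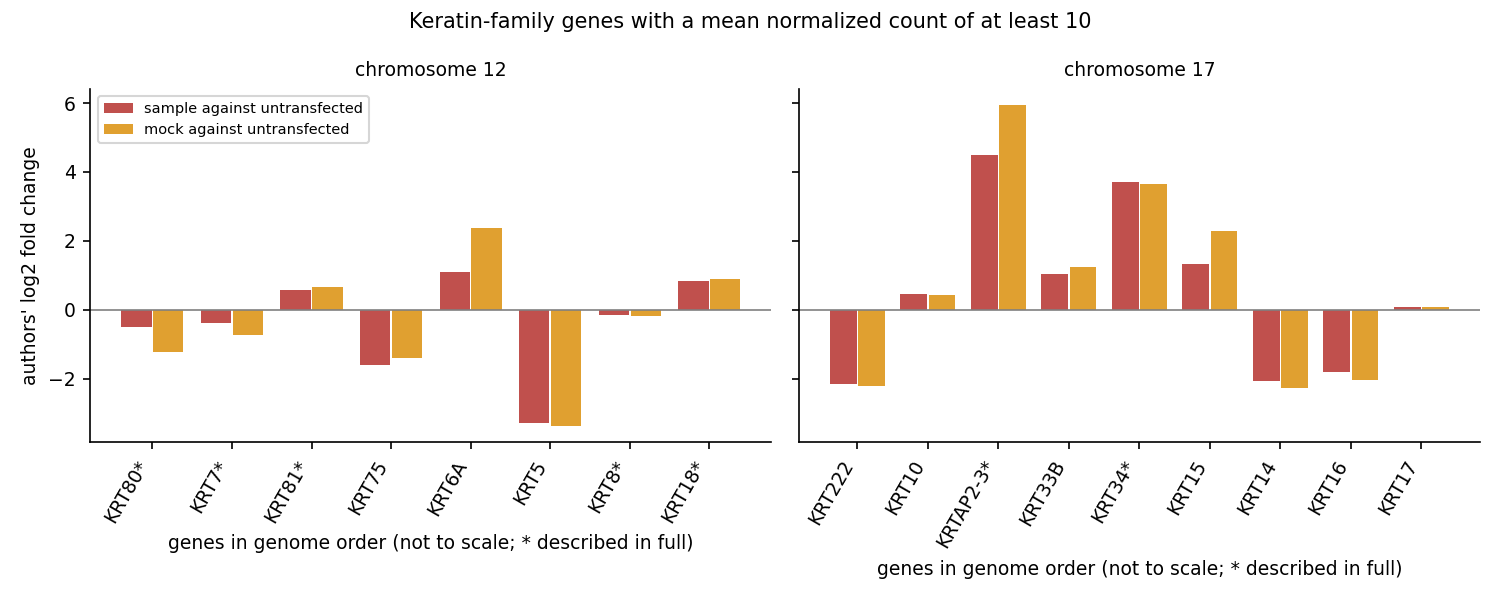
Log2 fold change from the authors' tables (y axis) for the keratin-family genes with a mean of at least 10 normalized counts, in genome order on chromosome 12 (left) and chromosome 17 (right), for sample and mock against untransfected cells. On both chromosomes plotted genes with positive and negative values follow each other, KRT6A beside KRT5 on chromosome 12 and KRT15 beside KRT14 on chromosome 17.

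Each keratin cluster held genes that were higher and genes that were lower in transfected cells. KRT6A and KRT5 are next to each other among the family genes, and KRT6A passed for mock cells alone. On chromosome 12, KRT81 and KRT8 are 606 kb apart with 21 family genes between them, and those with a mean of at least 10 were KRT75, KRT6A and KRT5, with deposited log2 fold changes for mock against untransfected cells of -1.39, 2.38 and -3.39 in the authors' table. KRT80, KRT7 and KRT81 follow each other with gaps of 41.2 and 37.0 kb, KRT86 starting in the last gap, and had -1.23, -0.72 (not passing) and 0.65 in the authors' deposited table. On chromosome 17, KRT34 was higher and KRT14 lower in both transfected groups, with other family genes between them. KRT33B, next to KRT34, had 1.02 (adjusted p = 0.0876) for sample and 1.23 (adjusted p = 0.0152) for mock against untransfected cells in the authors' deposited table.

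Genes that anchor or bind keratin filaments were counted next. Of 25 plakin, desmosome and keratin-binding genes 18 had a mean of at least 10. For sample against untransfected cells the authors' table tested 20, of which 4 rose and 2 fell, 30% beside 37.3% of all genes passing. For mock against untransfected cells it tested 20, of which 6 rose and 6 fell, 60% beside 50.9% of all genes. Nothing is read from these counts. The median log2 fold changes were -0.03 and -0.001, near those of all genes. DSP, desmoplakin, which ties keratin filaments to desmosomes, averaged 222 normalized counts in sample cells and 280 in mock cells, against 31.5 in untransfected cells, and rose by 2.49 and 3.02 on the log2 scale in the authors' deposited table. JUP, plakoglobin, a desmosomal plaque protein that binds desmoplakin, averaged 239 in sample cells and 116 in mock cells, against 743 in untransfected cells, at -1.57 for sample and -2.59 for mock on the log2 scale in the authors' deposited table. PKP2, another plaque protein, had -0.72 and -1.08, and PLEC, plectin, the abundant linker of intermediate filaments, 0.81 and 0.85, for sample and mock against untransfected cells in the authors' deposited table. EPPK1, epiplakin, a keratin-binding plakin, passed for mock at -1.65 and not for sample at -0.78 (adjusted p = 0.136), and DST, dystonin, had -0.03 and -0.02 and passed in neither, in the authors' deposited table. Of the desmosome genes named so far, desmoplakin was higher and plakoglobin and plakophilin 2 were lower in both transfected groups. The others of the list with a mean of at least 10 did not all move. In the authors' deposited table DSG2 had 0.09 for sample and 0.05 for mock against untransfected cells, and DSG2, PERP and PKP4 passed in neither comparison. PKP3 at -0.68 and DSC2 at -0.59 passed as lower for mock cells alone.

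Of 17 other intermediate filament genes 11 had a mean of at least 10. For sample against untransfected cells the authors tested 13, of which 2 rose and 4 fell, beside 37.3% of all genes passing (20.2% higher and 17.1% lower). For mock against untransfected cells they tested 14, of which 4 rose and 6 fell, beside 50.9% of all genes (27.5% higher and 23.3% lower). The medians were -0.21 and -0.24, against -0.00280 and -0.00385 over all genes. Nothing is read from these counts. NES (nestin) had log2 fold changes of -1.22 for sample and -1.21 for mock, NEFL (neurofilament light) -0.70 and -0.85, DES (desmin) -1.01 and -1.17, and IFFO1 0.93 and 1.20, all passing in the authors' deposited table. SYNM (synemin) passed for mock at -1.68 and not for sample at -1.07 (adjusted p = 0.0799) in the authors' deposited table. VIM, vimentin, the mesenchymal filament, had 0.20 in both comparisons of the authors' deposited table, passing for mock (adjusted p = 0.0168) and not for sample (adjusted p = 0.220). LMNA, lamin A/C of the nuclear lamina, had -0.21 (adjusted p = 0.0658) for sample and -0.22 (adjusted p = 0.00475) for mock in the authors' deposited table. For sample against mock cells the authors' DESeq2 called 0 of 19 anchor and binding genes and 0 of 12 other filament genes, beside 0.0785% of all genes. At an unadjusted p under 0.05 there were 2 and 0. In the same comparison limma-voom called 0 of 18 and 0 of 11, beside 0.0134% of all genes.

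**Figure D5:**
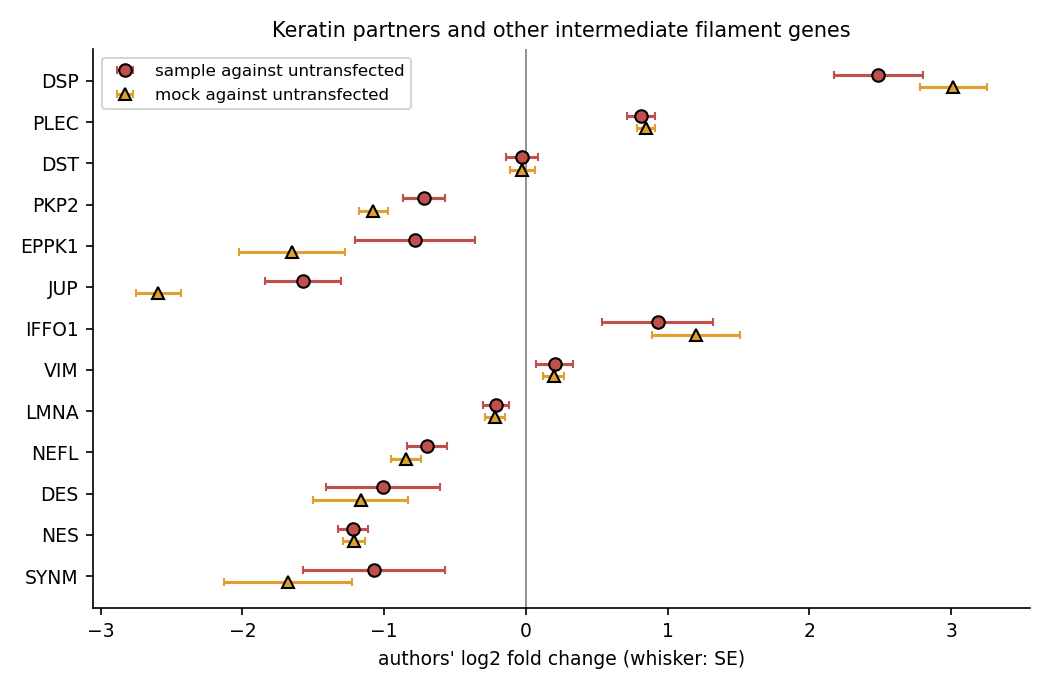
Log2 fold change with its SE from the authors' tables (x axis) for the named keratin partners and other intermediate filament genes, for sample (circles) and mock (triangles) against untransfected cells. DSP has the most positive values and JUP the most negative among those drawn, and DST stays near 0.

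For each member with a mean of at least 10 normalized counts, the genes with the nearest profile were found among 14893 genes, by the Euclidean distance between log2 profiles over the 6 libraries after centring each gene on its own mean. The neighbours of KRTAP2-3 were MMP3, stromelysin-1, at 1.34 and GPR65, a proton-sensing receptor, at 1.45. MMP3 averaged 1280 normalized counts in sample cells and 2103 in mock cells, against 20.5 in untransfected cells. The distances of KRTAP2-3 were the largest of the 7 genes. KRT34 stood nearest to MARCHF4, a membrane ubiquitin ligase, at 0.33 and to the non-coding LINC00707 at 0.50. MARCHF4 averaged 2099 in sample cells and 1678 in mock cells, against 128 in untransfected cells. For KRT18 the nearest were BAK1, a pro-apoptotic gene, at 0.06 and ITGA5, the fibronectin receptor subunit, at 0.08, and for KRT81 they were IFIT5 at 0.05 and MYCBP at 0.06. KRT8 was nearest to DGCR6L and ISOC2, both at 0.08. KRT80 was nearest to CREB3L1, a membrane-bound transcription factor, at 0.16 and to the glypican GPC4 at 0.18, and KRT7 to PTENP1 at 0.35 and TUBA3E at 0.37. These distances describe 6 libraries, of which 4 are transfected, and some rest on few reads. In sample b, KRT7 and PTENP1 each had 8.22 normalized counts, which for KRT7 are 2 reads, and TUBA3E had 4.11. GPR65 had 0 and 0.718 normalized counts in untransfected cells.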

How the data were processed

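Samples were assigned to the 3 groups from the labels, 2 libraries of U2OS 2-6-3 cells each. Strand-marking libraries were prepared from total RNA, per the labels' protocols. The submitters' processing notes name Bowtie, STAR, DESeq2 and hg38 without versions; annotation and read counting were not given in the sources used here. Deposited by the authors were 3 result tables, each comparing 2 groups over 4 libraries. Per the file headers, each of 40029 transcript entries has a mean signal (average of normalized counts), a p-value before and after adjustment, a Wald score, and a log2 fold change with a standard error. Table starts count from 0 and are printed 1 higher.

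The deposited results, at an adjusted p under 0.05, are the main ones. The test that the design reserved for raw counts was not run, since the tables hold none. Since each deposited mean is a sum of whole counts over size factors, lattice reduction was used to solve for the counts of the 6 libraries. All 30527 entries with reads were recovered within a relative tolerance of 1e-14, and 29936 of 29936 entries were recovered on simulated data. The recovered counts, scaled by median-of-ratios size factors, gave the level of each gene and were also put through limma-voom (R 4.3.3, limma 3.58.1) for genes with a mean of at least 10, with Benjamini-Hochberg adjustment. Depth ran from 9579278 to 54177551 reads over entries (a read can count for several isoforms), so low values of sample b are the least precise.

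Symbols were found for 39747 entries (99.3%) through RefSeq and GENCODE tables, and entries without a symbol held 0.0601% of reads. Transcript lengths, used per kilobase, and shared 50-base windows came from GENCODE transcripts. Named genes are the members, up to 4 genes per list and comparison with the largest deposited log2 fold change among those that passed with a mean of at least 10, the 2 most abundant of each list, and the 2 nearest profiles of each member (pseudocount 1). KRT33B, KRT71, DSG2, DSC2, PERP, PKP3 and PKP4 were named after their values were seen. Members and gene lists were chosen with earlier results of these data known. Alternatives were a threshold of 0.01, means of at least 10 and 50, other scalings, no filter, summed entries, the ratio of group means (pseudocount 0.5) and leaving out each library. Python 3.11.15, numpy 2.4.6, pandas 2.3.3 and matplotlib 3.10.9 were used.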

Additional observations from a re-analysis of the deposited data

How the results depend on the processing

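No paired analysis was possible because the recovered libraries carry no replicate number. With each library left out, 5 members passed for sample against untransfected cells, though not the same ones, since without sample a KRT80 was lost and KRT7 passed. The range was 5 to 6 for mock against untransfected cells, where upper quartiles gave 7 of 7, and 0 to 2 for sample against mock cells. The 2 calls, KRT80 and KRTAP2-3, came without sample a, where 1 filament or partner gene also passed (range 0 to 1). That fit has 1 sample library, assumed to vary like the other groups. For the other keratins, the authors' table called 7 of 13 for sample and 13 of 17 for mock against untransfected cells, beside 37.3% and 50.9% of all genes. In each of these comparisons limma-voom called 9 of 10. Against untransfected cells, the share of all genes passing was taken for the authors' main test alone. The counts given here for other settings are therefore not read as a result about these genes. Limma-voom with no filter called 18 of 50 for sample against untransfected cells. For mock against untransfected cells the authors' test with a mean of at least 50 called 7 of 8, and limma-voom called 8 of 10 with library totals and 8 to 10 with a library left out.

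Among sample against mock differences, none of which passed, the sign of KRTAP2-3 (0.04 in the authors' deposited table) turned with limma-voom, which gave -0.12 with median-of-ratios sizes, with no filter and with summed entries, -0.11 with library totals and -0.10 with upper quartiles. The cause was not tested. With a library left out, KRTAP2-3 ran from -0.42 to 0.65, KRT7 from -1.02 to 0.80, KRT8 from -0.10 to 0.19, KRT18 from -0.17 to 0.085, KRT34 from -0.0088 to 0.37 and KRT81 from -0.14 to 0.040. KRT80 kept its sign, from 0.34 to 1.04, and against untransfected cells from -0.91 to -0.23 in sample cells and from -1.29 to -1.23 in mock cells. With upper quartiles KRT8 also passed for mock against untransfected cells, at -0.31 (adjusted p = 0.0247). KRT7 passed for sample against untransfected cells without sample a at -1.92 (adjusted p = 0.0325), a value of 1 library with 2 reads, with the spread taken from the other groups.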

Other observations

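Some genes of the hair and nail marker list moved in different directions. In the authors' deposited table LEF1, the Wnt effector active in hair matrix cells, had a log2 fold change of 1.07 for sample and 0.93 for mock against untransfected cells. HOXC13, a regulator of hair keratin genes, had -0.73 (adjusted p = 0.0486) and -0.98 (adjusted p = 4.30e-06) in the authors' deposited table. Both LEF1 and HOXC13 thus passed in both comparisons, HOXC13 narrowly for sample cells. In the same table LHX2 had -0.76 (adjusted p = 0.232) for sample and -1.11 (adjusted p = 0.0352) for mock. TCHH had -0.53 (adjusted p = 0.445) and -0.66 (adjusted p = 0.278) there. LEF1 had 279 and 386 normalized counts in sample cells and 288 and 273 in mock cells, against 140 and 156 in untransfected cells. HOXC13 had 113 and 218 in sample cells and 143 and 126 in mock cells, against 247 and 308 in untransfected cells. KRT34 and KRT81, the hair keratins among the members, were higher in the same transfected libraries. Of other hair keratins, KRT33B passed as higher and KRT86, at a mean of 4.71 normalized counts, as lower for mock cells alone in the authors' deposited table. KRT75 of the hair follicle was lower in both transfected groups. Whether LEF1, HOXC13 and these keratins bear on each other was not tested.

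Of the epithelial markers, CLDN4, which encodes a tight junction claudin, fell by 3.27 in sample cells and by 3.59 in mock cells on the log2 scale against untransfected cells in the authors' deposited table. EPCAM, an epithelial adhesion gene, fell by 1.43 and by 1.34 in the authors' deposited table. CDH1, E-cadherin, had 61.6 and 37.0 normalized counts in sample cells and 62.8 and 37.9 in mock cells, against 48.4 and 43.8 in untransfected cells, ranges that overlap. ALPL, alkaline phosphatase of the osteoblast list, had 538 and 653 in sample cells and 760 and 866 in mock cells, against 57.5 and 68.9 in untransfected cells, while RUNX2 of the same list had 92.8 and 131 in sample cells and 66.3 and 63.8 in mock cells, against 381 and 417 in untransfected cells.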
